A study of Homo sapiens with 8 samples.

Results

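The spliceosome core genes described here are 49 genes for proteins of the splicing machinery, chosen by name for their role, out of 78932 gene identifiers in the count tables. They cover the Sm and LSm ring proteins, the specific proteins of the U1, U2, U5 and U4/U6 small nuclear ribonucleoproteins (snRNPs), the U2AF and SF1 factors that read the end of the intron, and PRPF and related factors. Each of the 49 symbols matched 1 identifier, and 47 genes had enough reads to be tested. PRPF31 and LSM2 had too few.

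All libraries came from HCT116, a human colorectal cancer line, in which NUDT21 carries a dTAG degron. NUDT21 is the RNA-binding subunit of cleavage factor Im, which binds UGUA upstream of poly(A) sites. The control group (DMSO+JTE-607, 4 libraries) received the solvent DMSO and JTE-607, and the other group (dTAGV1+JTE-607, 4 libraries) received dTAGV1 and JTE-607. dTAGV1 is a small molecule that brings a dTAG-fused protein to a ubiquitin ligase for degradation, and JTE-607 is an inhibitor of CPSF3, the endonuclease that cuts pre-mRNA at the poly(A) site. JTE-607 was thus present in every library, and libraries without it were not analysed here. Doses, times and whether the line is 1 clone are not given in the labels. The labels do not say that the replicates came from separate cultures, so p-values measure the spread between these libraries, which may be technical. In these bulk samples, fewer cells of a kind and less RNA per cell cannot be told apart.

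The spliceosome removes introns from pre-mRNA. U1 snRNP binds the 5′ splice site, SF1 and U2AF bind the branch point and the 3′ splice site, and U2 snRNP then replaces SF1 at the branch point. The U4/U6.U5 tri-snRNP joins next, U4 and U1 leave, and U6 and U2 form the catalytic centre held by PRPF8. Sm proteins form a ring on the U1, U2, U4 and U5 RNAs, and LSm proteins form a related ring on the 3′ end of U6 RNA. Most of these proteins are needed in every cell, and their mRNAs are abundant in dividing lines such as HCT116.

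Libraries held 8649238 to 9977205 reads, of which 3447842 to 4291256 were counted on the sense strand of a gene, with 20582 to 21444 genes detected. Uniquely mapped reads that fit no gene on the sense strand were 30.1 to 33.7% in the controls and 35.9 to 37.4% with dTAGV1, without overlap. Unmapped reads were 27.7 to 28.9% and 20.4 to 30.3% of all reads. Their part in the results below was not tested. CPM below denotes counts in every 1000000 counted reads after TMM scaling, and every fold change is dTAGV1+JTE-607 over DMSO+JTE-607. A gene was called when its Benjamini-Hochberg adjusted p from edgeR's quasi-likelihood test was under 0.05. NUDT21 mRNA was 32.2 ± 2.81 CPM (SD, n = 4) in the control group and 8.25 ± 2.62 CPM (n = 4) with dTAGV1, a log2 fold change of -1.95 ± 0.18 (SE, edgeR adjusted p = 1.36e-09). The tag acts on the protein, which was not measured. The epithelial markers EPCAM, CDH1, KRT8, KRT18 and KRT19 were detected in all 8 libraries, while the blood and endothelial markers PTPRC, CD3E, PECAM1 and CDH5 and the fibroblast marker COL3A1 had 0 to 2 counts. A further fibroblast gene, COL1A1, had 37 to 73 counts.

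Of the 47 tested spliceosome core genes, 17 fell and 7 rose with dTAGV1, and 23 were not called. Across all 12618 tested genes, 57.9% were called, 28.5% as lower and 29.4% as higher. Among the core genes 51.1% were called, 36.2% as lower and 14.9% as higher. Libraries of the groups did not overlap for 13 of the 47 core genes with dTAGV1 lower, and for 4 of the 47 with dTAGV1 higher. Across all 12618 tested genes this held for 3166 (25.1%) and 3257 (25.8%), and for 6423 (50.9%) in either direction. The median log2 fold change of the core genes was -0.06, beside 0.01 for all tested genes, and 30 of the 47 lay below 0. Their changes were small, as were most of those in a second list of 97 splicing genes described below. The median absolute log2 fold change was 0.20 for the core genes, 0.26 for the second list and 0.42 for all tested genes. Changes over 2-fold were called for SNRPD3 alone of the core genes and for 2 genes of the second list. Of all tested genes, 9.23% fell and 7.35% rose by that much. A mean of at least 100 counts was reached by 44 core genes and by 6369 genes in all, so the sets differ in depth. Scaling by library size in place of TMM moved the split of core genes to 20 lower and 4 higher, since it shifted the median of all tested genes from 0.01 to -0.06.

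**Figure D1:**
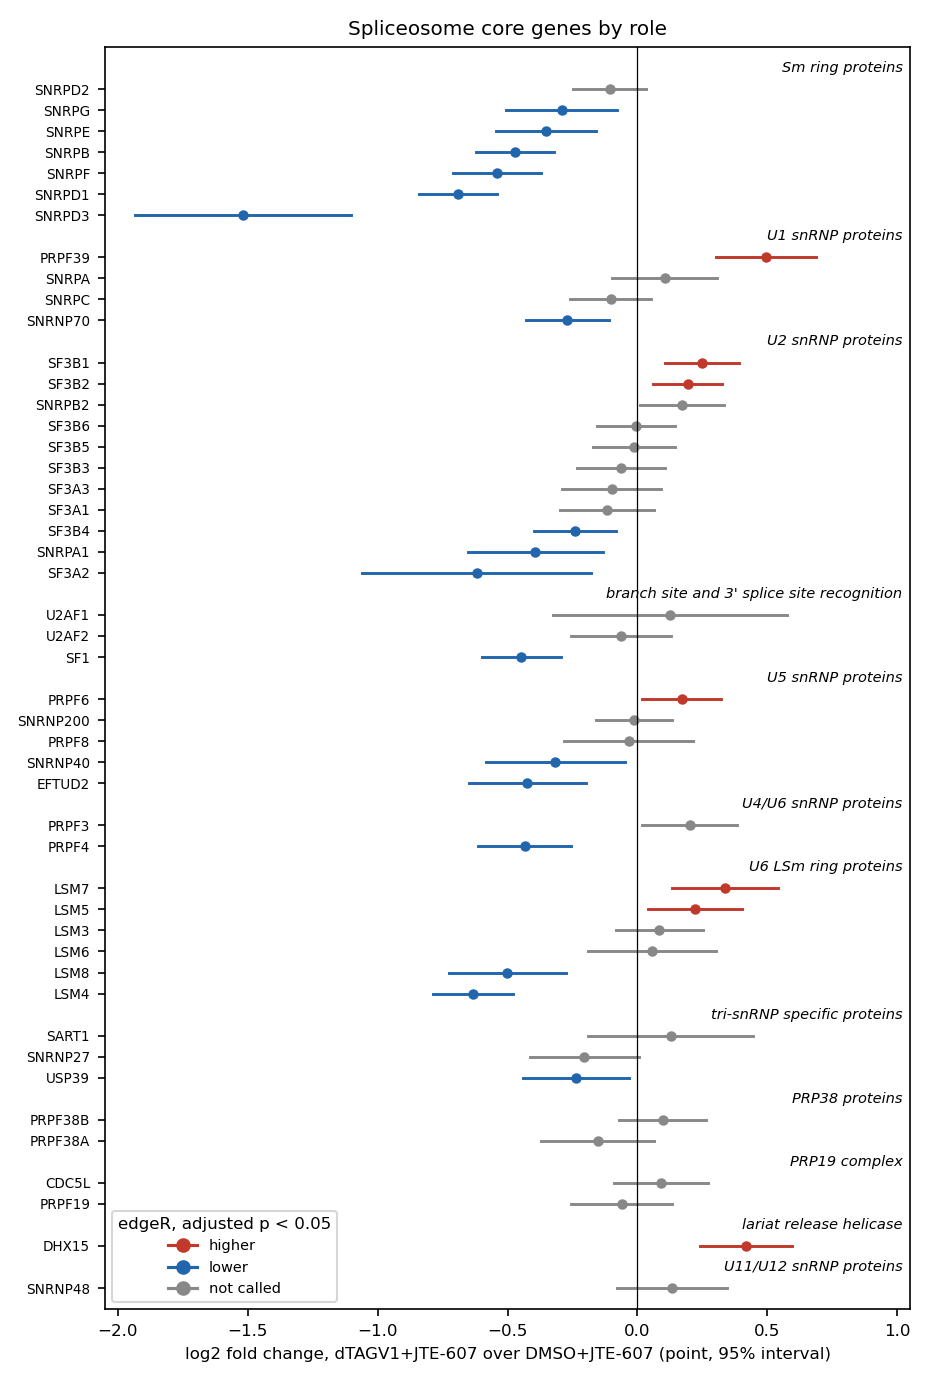
Log2 fold change (x axis, dTAGV1+JTE-607 over DMSO+JTE-607) of the 47 tested spliceosome core genes, grouped by role (y axis), with point estimates and 95% intervals from edgeR. The Sm ring genes lie to the left of 0, SNRPD3 farthest at -1.52, and PRPF39 is farthest to the right at 0.49.

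Reads on the core genes were 0.653, 0.679, 0.673 and 0.657% of counted reads in the controls, in the order of their numbers, against 0.591, 0.601, 0.592 and 0.596% with dTAGV1. All 4 dTAGV1 libraries were below all 4 controls. The controls averaged 0.666 ± 0.0123% and the dTAGV1 libraries 0.595 ± 0.00462% (SD over 4 libraries), which puts dTAGV1 minus control at -0.0707 percentage points. The 7 Sm ring genes alone took 0.144, 0.151, 0.149 and 0.140% of counted reads in the controls and 0.0992, 0.106, 0.0998 and 0.108% with dTAGV1. The shares use counted reads without TMM scaling, and under library-size scaling the median log2 fold change of all tested genes was -0.06. These shares are given as a description, since each is a sum over chosen genes.

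Because the libraries read the 3′ ends of mRNAs and the tagged protein and the target of JTE-607 both act in 3′ end formation, the annotated 3′ ends of 8 core genes are shown first. They were picked among the genes whose last bases hold a poly(A) signal, and include genes that fell, genes that rose and SNRPD2, the Sm ring gene that was not called. Each line gives the last 30 bases of 1 GENCODE 29 transcript on GRCh38, in the sense of the gene and with T for U, and capitals mark the poly(A) signal AATAAA or its variant ATTAAA. All lie in the 3′UTR at the end of the last exon.
SNRPD1, lower, chr18:21633495-21633524, plus strand: tctgtgaAATAAAgaggagtactttctttt
SNRPG, lower, chr2:70281362-70281391, minus strand: aatcttATTAAAtgtgaaacatggcaagga
LSM8, lower, chr7:118192795-118192824, plus strand: tgtgagtaAATAAActctaagtttgtattg
SF1, lower, chr11:64764606-64764635, minus strand: ttgAATAAAagagcagtgtggttttctggg
SNRPD2, not called, chr19:45687454-45687483, minus strand: AATAAAgctctgtgtttttttctagtggta
PRPF39, higher, chr14:45115572-45115601, plus strand: ttgtAATAAAacggaagactcatccagtaa
DHX15, higher, chr4:24527475-24527504, minus strand: actgacttcAATAAAgtctatttatactaa
SF3B1, higher, chr2:197389784-197389813, minus strand: actagatgAATAAAacgtattatatctaaa
Over all 49 core genes, AATAAA stood in the last 40 bases of 26 (53.1%), against 62.0% of all tested protein-coding genes. Which annotated end the reads of a gene came from was not analysed here.

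The Sm ring genes fell most as a group: 6 of the 7 were lower, none was higher, and the median log2 fold change was -0.47. SNRPD3 (chr22:24555503-24609980, plus strand), 1 of the D subunits of the ring, measured 35.0, 49.0, 55.5 and 48.5 CPM in control replicates 1 to 4 and 10.8, 21.4, 12.1 and 20.8 CPM with dTAGV1. Its highest dTAGV1 library stood below its lowest control, and dTAGV1 replicates 1 and 3 were the lowest of all. From 47.0 ± 8.62 CPM in the controls the mean went to 16.3 ± 5.63 CPM (SD over 4 libraries). In edgeR's model this is a log2 fold change of -1.52 ± 0.20 (SE; 95% interval -1.94 to -1.10; adjusted p = 5.31e-06), a fall of 65.1% in scaled counts. GGT1 and AP000356.1 overlap SNRPD3 on the same strand, where they had 0 to 4 counts.

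SNRPD1 (chr18:21612267-21633524, plus strand), another D subunit of the ring, measured 345, 324, 302 and 294 CPM in the controls and 209, 195, 187 and 191 CPM with dTAGV1. Every dTAGV1 library was far below every control. The log2 fold change was -0.69 ± 0.07 (SE; 95% interval -0.84 to -0.54; edgeR adjusted p = 1.37e-08). SNRPB (chr20:2461634-2470853, minus strand), which encodes the B and B′ proteins of the ring, measured 315, 379, 378 and 342 CPM in the controls and 256, 266, 244 and 253 CPM with dTAGV1. Its groups did not overlap either, and the log2 fold change was -0.47 ± 0.07 (SE; edgeR adjusted p = 5.19e-06). SNRPF (chr12:95858928-95903828, plus strand), the F subunit, measured 128, 143, 158 and 132 CPM in the controls and 94.1, 99.7, 98.7 and 94.1 CPM with dTAGV1. The dTAGV1 libraries lay within a few CPM of each other and below all controls, with a log2 fold change of -0.54 ± 0.08 (SE; edgeR adjusted p = 4.39e-06).

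The E subunit gene SNRPE fell from 111 ± 2.49 to 86.9 ± 12.8 CPM (log2 fold change -0.35, edgeR adjusted p = 0.00219), with groups that did not overlap. The G subunit gene SNRPG went from 111 ± 14.5 to 90.2 ± 12.8 CPM (log2 fold change -0.29, edgeR adjusted p = 0.0186), with overlapping groups. The call for SNRPG was lost without control replicate 3 (log2 fold change -0.21, adjusted p = 0.0968) and without dTAGV1 replicate 2 (-0.23, adjusted p = 0.0652). SNRPD2, which pairs with SNRPD1 in the ring, measured 364, 355, 348 and 342 CPM in the controls and 303, 351, 317 and 338 CPM with dTAGV1. Its groups overlapped and it was not called (log2 fold change -0.11, 95% interval -0.25 to 0.03, edgeR adjusted p = 0.185), though it was called lower under library-size scaling (-0.18, adjusted p = 0.0261). GENCODE 29 lists 20 pseudogenes named after SNRPG, 9 after SNRPE, 4 after SNRPF, 2 after SNRPD2 and 1 after SNRPB. Near-identical copies can take or split their reads, so these values are uncertain to that extent.

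**Figure D2:**
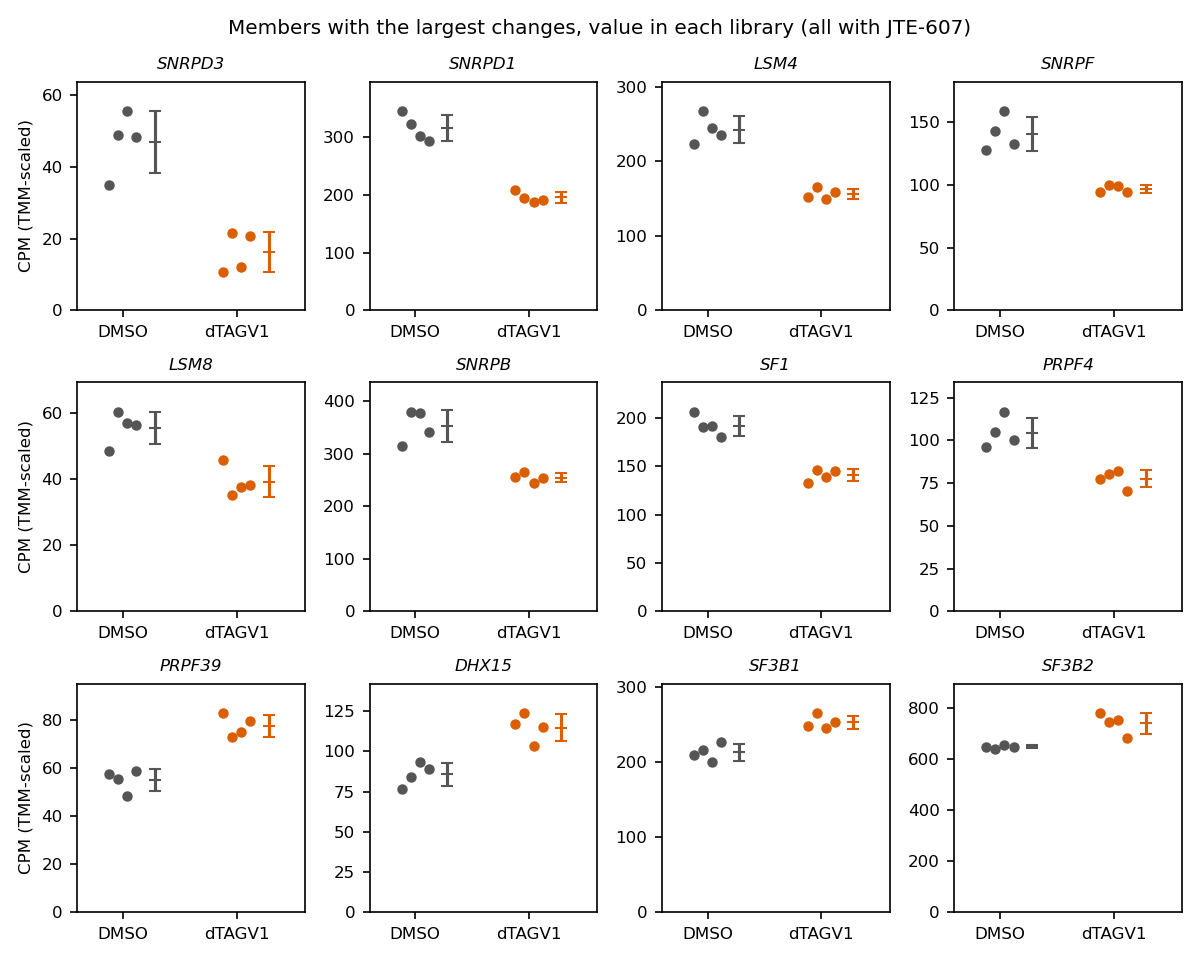
TMM-scaled CPM (y axis, from 0) in each library of both groups (x axis) for core genes selected as called, at least 10 CPM on average and without overlap between groups: the 8 such genes with the largest decreases and the 4 that rose; points are libraries, and the bar beside them is the mean with its SD (n = 4). The separation of the groups is part of the selection, and the plot shows its size, for example 223 to 267 against 149.7 to 165 CPM for LSM4.

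Among the 4 tested U1 genes, 1 rose, 1 fell and 2 were not called. PRPF39 (chr14:45084099-45116282, plus strand), an auxiliary U1 protein linked to 5′ splice site choice, measured 57.7, 55.5, 48.6 and 58.6 CPM in the controls and 82.8, 72.8, 75.1 and 79.5 CPM with dTAGV1. All dTAGV1 libraries were above all controls, and the log2 fold change of 0.49 ± 0.09 (SE; 95% interval 0.30 to 0.69; edgeR adjusted p = 7.06e-05) was the largest rise among the core genes. SNRNP70, the U1-70K protein that contacts the first stem-loop of U1 RNA, measured 177, 161, 153 and 148 CPM in the controls and 135, 137, 121 and 137 CPM with dTAGV1. Its groups did not overlap, and it fell by 0.27 on the log2 scale (SE 0.08, edgeR adjusted p = 0.00456). SNRPA, the U1-A protein, had a log2 fold change of 0.10 (95% interval -0.10 to 0.31) and SNRPC, the U1-C protein that stabilises pairing with the 5′ splice site, of -0.10 (95% interval -0.26 to 0.05), neither called. Under library-size scaling SNRPC was called lower (log2 fold change -0.18, edgeR adjusted p = 0.0486). SNRPC has 18 pseudogenes by name in GENCODE 29.

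The 11 U2 genes split, with 2 higher, 3 lower and 6 not called. SF3B1 (chr2:197389784-197435091, minus strand), the SF3b scaffold that clamps the branch-point helix and is mutated in several blood cancers, measured 209, 216, 201 and 227 CPM in the controls and 248, 265, 246 and 254 CPM with dTAGV1. Each dTAGV1 library exceeded each control, a rise of 18.8% (log2 fold change 0.25 ± 0.07, SE; edgeR adjusted p = 0.00358). SF3B2 (chr11:66050729-66069308, plus strand), an SF3b subunit that contacts RNA near the branch point, measured 648, 641, 655 and 645 CPM in the controls and 778, 744, 754 and 683 CPM with dTAGV1. The groups did not overlap and the rise was 14.3% (log2 fold change 0.19 ± 0.06, SE; edgeR adjusted p = 0.0132). This call was lost under library-size scaling (0.12, adjusted p = 0.119) and with no filter on low counts (0.17, adjusted p = 0.061). A fold threshold of 1.2 also ended it (edgeR adjusted p = 0.772).

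SF3B4, an RNA-binding SF3b subunit, measured 116, 114, 118 and 115 CPM in the controls and 98.6, 95.5, 99.9 and 97.7 CPM with dTAGV1. It fell in a narrow range without overlap (log2 fold change -0.24 ± 0.08, SE; edgeR adjusted p = 0.00886). SNRPA1, the U2-A′ protein, measured 36.6, 37.1, 35.0 and 42.5 CPM in the controls and 25.5, 28.7, 25.3 and 35.0 CPM with dTAGV1. Control replicate 3 and dTAGV1 replicate 4 overlapped by under 0.1 CPM, and the gene fell by 0.39 on the log2 scale (SE 0.13, edgeR adjusted p = 0.00967). SF3A2, an SF3a subunit, was the least abundant of the called U2 genes at 21.3, 16.6, 20.01 and 10.6 CPM in the controls and 15.3, 11.2, 9.43 and 8.75 CPM with dTAGV1. Control replicate 4 fell among the dTAGV1 libraries, and the log2 fold change of -0.62 ± 0.21 (SE; edgeR adjusted p = 0.0161) was lost without control replicate 1 (-0.50, adjusted p = 0.0598) or control replicate 3 (-0.54, adjusted p = 0.0571).

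The other 6 U2 genes were SNRPB2, SF3A1, SF3A3, SF3B3, SF3B5 and SF3B6, with log2 fold changes from -0.12 for SF3A1 to 0.17 for SNRPB2, and all had overlapping groups. SNRPB2, the U2-B″ protein, came closest to a call (95% interval 0.01 to 0.33, edgeR adjusted p = 0.0628) and passed without dTAGV1 replicate 1 (0.23, adjusted p = 0.0125). For SF3B6, which binds SF3B1, the interval of the log2 fold change was -0.16 to 0.14. Genes for subunits of the same SF3b complex therefore had counts that rose (SF3B1, SF3B2), fell (SF3B4) or were not called (SF3B3, SF3B5, SF3B6).

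Of the 3 genes for recognition of the branch point and 3′ splice site, SF1 fell. SF1 (chr11:64764606-64778786, minus strand), the protein that first binds the branch point, measured 206, 191, 192 and 180 CPM in the controls and 133, 147, 139 and 145 CPM with dTAGV1. All dTAGV1 libraries were below all controls, with a log2 fold change of -0.45 ± 0.07 (SE; 95% interval -0.60 to -0.30; edgeR adjusted p = 1.21e-05). Its partners in that step were not called. U2AF2, which binds the polypyrimidine tract, had a log2 fold change of -0.06 (95% interval -0.26 to 0.13), with overlapping groups. U2AF1, which binds the AG at the intron end, measured 9.56, 8.92, 9.34 and 7.42 CPM in the controls and 9.35, 13.9, 7.36 and 8.04 CPM with dTAGV1. Only dTAGV1 replicate 2 was well above the rest, and at this low level the interval of the log2 fold change of 0.12 was wide (95% interval -0.33 to 0.58). A copy of it on the same chromosome, U2AF1L5, is annotated in GENCODE 29, so reads that match both could have been lost and the level is uncertain.

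Among the 5 U5 genes, 2 fell, 1 rose and 2 were not called. EFTUD2, the GTPase that helps to rearrange the catalytic core, measured 60.9, 51.4, 52.8 and 52.9 CPM in the controls and 40.5, 47.1, 33.9 and 40.9 CPM with dTAGV1. Its groups did not overlap, and it fell by 0.42 on the log2 scale (SE 0.11, edgeR adjusted p = 0.00187). PRPF6, a bridge between U5 and U4/U6, measured 170, 187, 186 and 166 CPM in the controls and 200, 201, 212 and 186 CPM with dTAGV1. The groups overlapped, and the rise of 0.17 on the log2 scale (95% interval 0.02 to 0.32) passed narrowly (edgeR adjusted p = 0.0499). Leaving out any library other than dTAGV1 replicate 4 ended that call, with adjusted p from 0.0552 to 0.185. It was called in only 2 of 18 alternatives, and not with DESeq2 (adjusted p = 0.0901), limma-voom (0.0507), RLE scaling (0.0642), library-size scaling (0.268), no filter (0.193), at least 100 counts (0.0656), either-strand counts (0.105) or non-robust dispersion (0.0532). SNRNP40, a WD-repeat protein of U5, fell from 33.4 ± 4.15 to 26.9 ± 3.19 CPM (log2 fold change -0.32, edgeR adjusted p = 0.0405). That call was lost without control replicate 2 (adjusted p = 0.106), control replicate 4 (0.132), dTAGV1 replicate 3 (0.0667) or dTAGV1 replicate 4 (0.108), and with DESeq2 (0.0628).

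PRPF8, the scaffold around the catalytic RNA, and SNRNP200, the helicase that unwinds U4 from U6, were not called. SNRNP200 was 169 ± 5.34 CPM in the controls and 168 ± 4.74 CPM with dTAGV1, and the interval of its log2 fold change was -0.16 to 0.13. For PRPF8, at 37.1 ± 5.24 and 36.3 ± 3.07 CPM, the interval was -0.28 to 0.22.

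Of the U4/U6 genes, PRPF4 (chr9:113275343-113292905, plus strand), which holds PRPF3 on the U4/U6 duplex, measured 96.2, 105, 116 and 100.4 CPM in the controls and 77.4, 80.1, 81.9 and 70.5 CPM with dTAGV1. Its groups did not overlap and it fell by 0.43 on the log2 scale (SE 0.09, edgeR adjusted p = 0.000147). PRPF3, its binding partner, measured 83.1, 86.6, 91.5 and 92.2 CPM in the controls and 102, 106, 113 and 86.6 CPM with dTAGV1. With overlapping groups it was not called (log2 fold change 0.20, edgeR adjusted p = 0.0555), but passed without dTAGV1 replicate 4 (0.26, adjusted p = 0.0132). PRPF31, which binds the stem of U4 RNA and is mutated in a form of retinitis pigmentosa, had 9, 11, 12 and 16 counts in the controls and 3, 7, 12 and 8 with dTAGV1, too few to be tested.

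The LSm ring genes of U6 went both ways: 2 fell, 2 rose and 2 of the 6 tested were not called. LSM4 (chr19:18306230-18323274, minus strand) measured 223, 267, 245 and 235 CPM in the controls and 152, 165, 149.7 and 158 CPM with dTAGV1. All dTAGV1 libraries were below all controls, with a log2 fold change of -0.63 ± 0.07 (SE; 95% interval -0.79 to -0.48; edgeR adjusted p = 8.61e-08). LSM8 (chr7:118184032-118192824, plus strand), the subunit that sets the nuclear U6 ring apart from the cytoplasmic LSM1 ring of mRNA decay, measured 48.6, 60.3, 57.1 and 56.4 CPM in the controls and 45.9, 35.3, 37.7 and 38.3 CPM with dTAGV1. Its groups did not overlap and it fell by 0.50 on the log2 scale (SE 0.11, edgeR adjusted p = 0.000335).

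LSM7 rose with overlapping groups, from 82.3, 78.9, 93.4 and 93.7 CPM in the controls to 114, 127, 112 and 88.5 CPM with dTAGV1, where only replicate 4 was within the control range (log2 fold change 0.34 ± 0.10, SE; edgeR adjusted p = 0.00511). LSM5 rose from 78.1 ± 4.27 to 91.0 ± 7.7 CPM (log2 fold change 0.22, edgeR adjusted p = 0.0348). Its call was lost when any of control replicates 1, 3 and 4 or dTAGV1 replicates 1, 2 and 4 was left out (adjusted p from 0.0621 to 0.118). It was called in 6 of 18 alternatives, and also lost with DESeq2 (adjusted p = 0.0725), library-size scaling (0.17), no filter (0.121), at least 100 counts (0.0502) and either-strand counts (0.0695). LSM3 and LSM6 were not called, with log2 fold changes of 0.08 (95% interval -0.08 to 0.25) and 0.06 (95% interval -0.19 to 0.30). LSM2 had 2, 0, 1 and 0 counts in the controls and 0, 1, 2 and 0 with dTAGV1. Why LSM2 and PRPF31 had so few counts was not examined, so the counts do not show that their mRNAs are scarce. Proteins of the LSM2 to LSM7 set are shared between the U6 ring and the LSM1 ring, so their mRNAs belong to both.

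Further along the pathway most genes were not called. Of the tri-snRNP genes, USP39, a ubiquitin-protease-like protein needed for tri-snRNP entry, measured 54.1, 53.5, 49.1 and 51.9 CPM in the controls and 48.5, 42.6, 41.2 and 44.7 CPM with dTAGV1. These groups did not overlap, but differed by little (log2 fold change -0.24 ± 0.10, SE; edgeR adjusted p = 0.0451), and the call was lost without control replicate 1, 2 or 4 or dTAGV1 replicate 2 or 3 (adjusted p from 0.0684 to 0.099), with DESeq2 (0.0731) and with no filter (0.0738). SART1, which bridges the tri-snRNP, measured 22.1, 18.6, 23.5 and 18.1 CPM in the controls and 26.6, 24.8, 21.2 and 17.5 CPM with dTAGV1, with overlapping groups (log2 fold change 0.13, 95% interval -0.19 to 0.44). SNRNP27 had a log2 fold change of -0.20 (95% interval -0.41 to 0.01, edgeR adjusted p = 0.0892) and was not called. It was called lower without dTAGV1 replicate 1 (-0.30, edgeR adjusted p = 0.00959) or replicate 2 (-0.28, adjusted p = 0.0263). The same held under library-size scaling (-0.28, edgeR adjusted p = 0.017) and with no filter (-0.23, adjusted p = 0.0228).

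PRPF38A, needed for activation of the assembled spliceosome, measured 61.2, 72.8, 81.9 and 69.7 CPM in the controls and 56.4, 76.7, 61.3 and 62.9 CPM with dTAGV1. Its log2 fold change of -0.15 (95% interval -0.37 to 0.06) was not called. With overlapping groups, it was called lower without dTAGV1 replicate 2 (-0.26, edgeR adjusted p = 0.044). Its relative PRPF38B measured 204, 234, 219.8 and 224 CPM in the controls and 209, 233, 278 and 224 CPM with dTAGV1, where replicate 3 alone was above the control range (log2 fold change 0.10, 95% interval -0.07 to 0.26, not called).

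PRPF19, the ubiquitin ligase that names the PRP19 complex, measured 66.1, 71.6, 73.9 and 77.9 CPM in the controls and 70.01, 76.4, 72.2 and 59.8 CPM with dTAGV1. Its groups overlapped (log2 fold change -0.06, 95% interval -0.26 to 0.13, not called). CDC5L, its partner, measured 137, 168, 148 and 142 CPM in the controls and 155, 133, 172 and 174 CPM with dTAGV1, also with overlap (0.09, 95% interval -0.09 to 0.27, not called). SNRNP48, a protein of the U11 snRNP of the minor spliceosome, had a log2 fold change of 0.13 (95% interval -0.08 to 0.35). DHX15 (chr4:24517441-24584550, minus strand), the helicase that takes the spliceosome apart after splicing, stood out from these with a rise. It measured 76.8, 83.9, 93.4 and 89.0 CPM in the controls and 117, 124, 103 and 115 CPM with dTAGV1. Its groups did not overlap, and the log2 fold change was 0.42 ± 0.09 (SE; 95% interval 0.24 to 0.59; edgeR adjusted p = 0.000196).

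A second list holds 97 other genes of splicing and snRNP assembly, and 6 other LSm-domain genes among them, some of which act outside the spliceosome. All 97 were tested, and the list gave 29 higher, 25 lower and 43 not called, with a median log2 fold change of 0.04. In that list 29.9% were called higher and 25.8% lower, beside 14.9% and 36.2% of the core genes and 29.4% and 28.5% of all tested genes. This difference in split between the lists was not tested. More genes were higher than lower among PRP19-associated proteins (8 and 1 of 16), helicases and step-2 factors (5 and 2 of 11), B and Bact complex proteins (4 and 1 of 9), minor spliceosome proteins (4 and 1 of 8) and U5 and tri-snRNP-associated proteins (3 and 1 of 6). More were lower than higher among factors for snRNP assembly and import (8 and 1 of 17), U1-associated (4 and 1 of 9), U2-associated (3 and 2 of 10), exon junction complex (2 and 0 of 5) and other LSm proteins (2 and 1 of 6). GEMIN5, the snRNA-binding subunit of the SMN assembly complex, fell from 79.6 ± 7.58 to 45.7 ± 5.27 CPM (log2 fold change -0.80, edgeR adjusted p = 3.35e-07), and STRAP, of the same complex, from 118 ± 3.57 to 73.7 ± 5.76 CPM (-0.67, adjusted p = 1.85e-07). PRPF40B, a U1-associated protein, fell from 45.3 ± 2.79 to 26.1 ± 4.86 CPM (-0.80, edgeR adjusted p = 8.05e-06). In the other direction, ISY1 rose from 77.2 ± 7.74 to 156 ± 16.0 CPM (1.01, edgeR adjusted p = 7.44e-10). Annotated genes on the same strand overlap ISY1 (ISY1-RAB43) and PRPF40B (HIGD1AP9 among others), and their part in these values was not tested. CDC40, a step-2 factor counted here among the PRP19-associated proteins, rose from 80.0 ± 1.04 to 144 ± 15.5 CPM (0.85, edgeR adjusted p = 5.51e-09). LSM14A, an LSm-domain protein of cytoplasmic P-bodies, rose from 6.42 ± 1.72 to 31.3 ± 3.18 CPM (2.29, edgeR adjusted p = 6.93e-11), and was under 10 CPM in the controls.

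**Figure D3:**
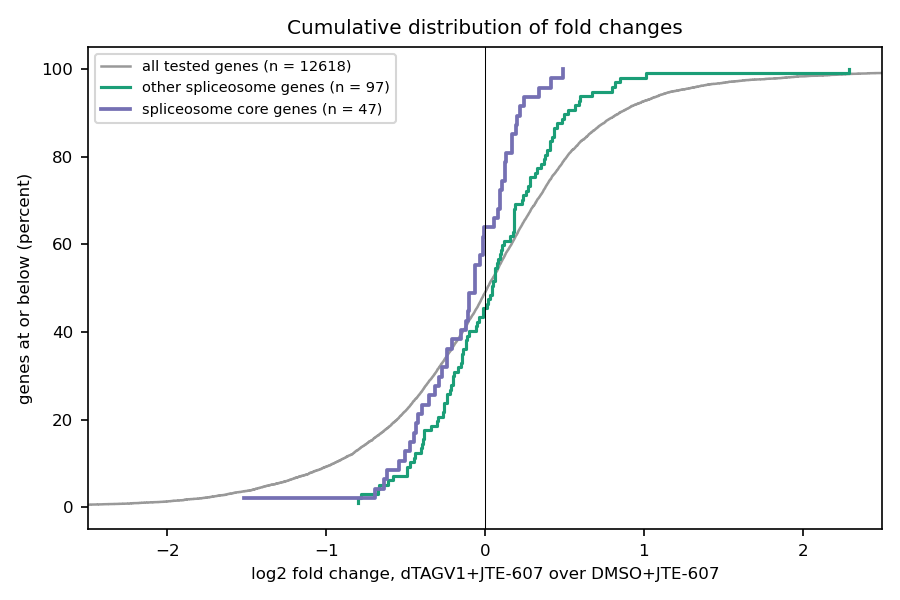
Percent of genes (y axis) at or below each log2 fold change (x axis, dTAGV1+JTE-607 over DMSO+JTE-607) for the 47 tested core genes, the 97 genes of the second list (other spliceosome genes in the key) and all 12618 tested genes. The curve of the core genes is steeper than that of all tested genes and crosses 50% at -0.06, against 0.01 for all tested genes.

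Counts on the strand opposite to a gene were tested apart. Only SNRPD1 and PRPF39 among the core genes had enough of them, and SNRPD1 was called higher and PRPF39 lower there. FKBP3 overlaps the end of PRPF39 on that opposite strand, so the counts there can be reads of FKBP3. Of the 3324 genes tested in this way, 48.4% were called, 24% as higher and 24.5% as lower.

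Annotated features of the 3′ ends differed among the core genes. More than 1 annotated 3′ end, at least 50 bases apart, was found for 13 of the 17 core genes that fell (76.5%), 3 of the 7 that rose (42.9%) and 5 of the 23 not called (21.7%). Among all tested protein-coding genes these shares were 59.0% of those lower, 62.1% of those higher and 59.4% of those not called. The Sm ring genes had more than 1 end in 5 of 7 cases. UGUA, the motif read by NUDT21, was searched as TGTA on the sense strand of the last 100 bases of the transcript. It was present in 8 of the 17 core genes that fell (47.1%), 6 of the 7 that rose (85.7%) and 15 of the 23 not called (65.2%), against 55.5% of all tested protein-coding genes. By call, the shares over all tested protein-coding genes were 55.9% of those lower, 58.0% of those higher and 53.5% of those not called. The features were compared after the calls were known, and these counts are descriptions without a test.

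**Figure D4:**
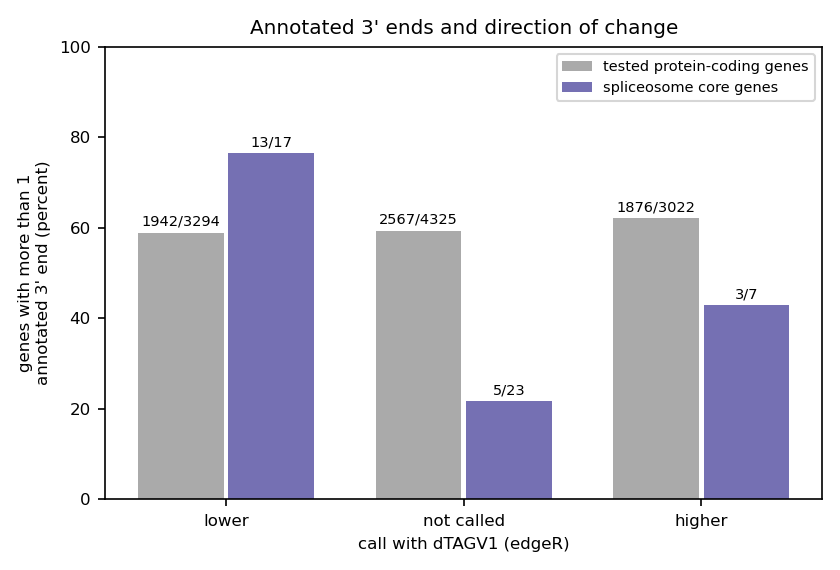
Percent of genes with more than 1 annotated 3′ end (y axis) by edgeR call with dTAGV1 (x axis), for the core genes and for all tested protein-coding genes, with the counts above the bars. The core genes range from 76.5% of those lower to 21.7% of those not called, while all tested protein-coding genes lie between 59.0 and 62.1%.

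The core genes had short mRNAs: the median 3′UTR was 621 bases, against 1158 for all tested protein-coding genes, and the median coding length was 1071 against 1404 bases. Across the 47 tested core genes the log2 fold change had a Spearman correlation of 0.287 with coding length, 0.265 with the number of exons and -0.0488 with 3′UTR length. Over the 10641 tested protein-coding genes these were 0.0746, 0.0476 and 0.0408. The genes are not independent replicates, and all values of a correlation come from the same 8 libraries.

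Many promoters of the core genes shared a short run of letters, in genes of every call. CCGGAAG, which holds the core of the sites bound by ETS-family factors, was searched on either strand in the 300 bases around a start. It was found for 20 of 44 core genes (45.5%). Starts and sequences are from RefSeq on GRCh38.p14, with the 5′-most start kept for each gene. For some genes, SNRPE and SNRPG among them, these letters lay inside the gene as drawn by GENCODE 29. The same letters were in 10.6% of 27305 promoters and in 20.2% of the promoters of tested genes. By call, they were in 7 of 16 core genes that fell, 3 of 6 that rose and 10 of 20 not called. For comparison, the TATA box letters TATAAA were in 1 of 44 (2.27%, against 12.02% of all promoters and 5.33% of those of tested genes), CCAAT in 18 of 44 (40.9%, against 35.7% and 37.2%) and CACGTG in 3 of 44 (6.82%, against 7.40% and 10.1%). The genes for PRPF3, LSM6, SF3B3, SNRPD1 and PRPF39 were not matched to a promoter. To show the shared letters across calls, 100 bases of 4 promoters are printed in the sense of the gene, all outside annotated GENCODE 29 exons, with CCGGAAG or its reverse complement CTTCCGG in capitals.
LSM8, lower, chr7:118183929-118184028, plus strand: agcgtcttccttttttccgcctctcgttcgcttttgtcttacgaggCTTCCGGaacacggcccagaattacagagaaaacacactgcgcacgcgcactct
SNRPA1, lower, chr15:101295308-101295407, minus strand: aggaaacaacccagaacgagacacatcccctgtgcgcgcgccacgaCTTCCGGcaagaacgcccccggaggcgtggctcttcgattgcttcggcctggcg
SNRNP200, not called, chr2:96305547-96305646, minus strand: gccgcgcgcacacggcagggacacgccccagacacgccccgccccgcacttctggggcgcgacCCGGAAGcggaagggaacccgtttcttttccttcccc
PRPF6, higher, chr20:63980980-63981079, plus strand: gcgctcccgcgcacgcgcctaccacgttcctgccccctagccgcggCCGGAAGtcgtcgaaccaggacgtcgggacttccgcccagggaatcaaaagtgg
No match of these letters was tested for binding of a factor, and the same motif stands in genes that fell, rose or were not called.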

How the data were processed

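RNA of 8 HCT116 libraries was extracted with Trizol and made into 3′ end libraries with a forward-stranded Lexogen QuantSeq kit, per the labels' protocols. The deposited tables hold whole-number counts of reads per gene in the layout of STAR, for either strand, the sense strand and the opposite strand. FastQC, fastp, STAR, HTSeq, DESeq2 and GRCh38 are named in the submitters' processing notes, with no roles or versions; the gene annotation and any removal of PCR copies are not given in the sources used here. Sense counts were used. They exceeded opposite-strand counts by 8.28 to 8.48 times. Reads given to no single gene on that strand were 56.7% to 62.8% of each library and stayed out of library sizes and tests.

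Counts were filtered with filterByExpr, scaled with TMM and tested with the robust quasi-likelihood test of edgeR 4.0.16 (R 4.3.3) over 12618 genes, with Benjamini-Hochberg adjustment and a threshold of 0.05. Standard errors are the absolute log2 fold change divided by the square root of F. The test was tested on simulated data.

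Members and lists were chosen with earlier results of these data known. Values in every library are given for the 8 largest decreases and increases that were called, had at least 10 CPM and did not overlap between groups (4 increases met this), for the extremes of each role group, and for untested members. Of the rest, SF3B4 and SNRPA1 were given in every library after their values were seen. From the second list, the 3 largest called changes per direction are named, if the 8 libraries average 10 CPM or more, a condition that a gene can pass through 1 group. Gene models and 3′ ends are from GENCODE 29 on GRCh38, which is not stated to be the authors' annotation; symbols matched 61481 of 78932 identifiers. Alternatives were DESeq2 1.42.0, limma-voom (limma 3.58.1), RLE and library-size scaling, no filter, a mean of at least 100 counts, counts irrespective of strand, a replicate block, non-robust dispersion, a fold threshold of 1.2 and leaving out each library. Replicate pairs within a group differed by more than sampling noise (chi-square over degrees of freedom 1.82 to 5.09). Figures were drawn with matplotlib 3.10.9.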

Additional observations from a re-analysis of the deposited data

Results flagged for a closer look

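Among 110 sets of 4 libraries checked for 1 value apart from the other three, 9 were found, and chance gives about 1 in 20. With dTAGV1, SNRNP70 was 121.4 CPM in replicate 3 (others 134.9 to 137.2), SF3B5 225.9 CPM in replicate 3 (195.1 to 199.1), PRPF8 31.69 CPM in replicate 4 (37.46 to 38), ISY1 179.4 CPM in replicate 3 (144.3 to 149.5) and GEMIN5 53.57 CPM in replicate 1 (42.59 to 43.99). In the controls, SNRPB2 was 228.7 CPM in replicate 1 (258.8 to 262.4), SF3A3 87.99 CPM in replicate 1 (115.2 to 116.9), EFTUD2 60.94 CPM in replicate 1 (51.37 to 52.92) and SF3B6 154.3 CPM in replicate 2 (163.4 to 164.9). Control replicate 1 and dTAGV1 replicate 3 each gave 3 of the 9.

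A signal in counts that the comparisons did not use was found on the strand opposite to SNRPD1, with 2, 1, 2 and 0 counts in the controls and 13, 10, 11 and 19 with dTAGV1. Its log2 fold change was 3.249 (SE 0.53, edgeR adjusted p = 6.17e-06), in a fit of opposite-strand counts in which 48.4% of 3324 genes were called. The nearest annotated gene downstream on that strand, ABHD3, lies 17373 bases away and rose by 0.40 on the log2 scale (edgeR adjusted p = 0.0144).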

How the results depend on the processing

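Of 32 named genes, 19 kept their direction and call status in every alternative that tested them, which was 18, or 17 for 5 of the 32. Among these 32, no called gene changed direction, but 2 genes that were not called did. Leaving out 1 library, U2AF1 ranged from -0.1039 (without dTAGV1 replicate 2) to 0.2152, and PRPF38B from -0.003224 (without dTAGV1 replicate 3) to 0.1424. Outside the 32, further core genes that were not called also changed sign when 1 library was left out. These were SF3B5 (-0.0762 to 0.03635), SF3B6 (-0.04385 to 0.01242), U2AF2 (-0.1249 to 0.02557), PRPF8 (-0.1076 to 0.05678) and LSM6 (-0.06145 to 0.1001). SNRPD3, SNRPD1, SNRPB, SNRPF, LSM4, LSM8, SF1, PRPF4, PRPF39 and DHX15 were called in all 18 alternatives, with SNRPD3 from -1.69 to -1.37 on the log2 scale. The core genes called higher were 7 in the fit reported, 4 under library-size scaling, 4 with no filter and 2 with a fold threshold of 1.2, which also left 9 lower, and 17 higher and 11 lower in the second list. That threshold ended the calls of SNRPE, SNRPG, SNRNP70, SNRPA1, SF3B1, SF3B2, SF3B4, EFTUD2, PRPF6, SNRNP40, LSM5, LSM7 and USP39. Requiring a mean of at least 100 counts left 4120 genes called. The median log2 fold change of the core genes was -0.141 under library-size scaling, -0.0874 with no filter, -0.1002 with at least 100 counts and -0.0935 irrespective of strand. Leaving out 1 library gave -0.1133 to -0.0596 for that median, 6861 to 7232 genes called, 5 to 7 core genes higher and 15 to 18 lower. A mean of at least 100 counts tests fewer genes and a fold threshold asks for larger changes; otherwise the cause was not tested.

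With a replicate block, 7434 genes were called, 8 core genes higher and 17 lower, SNRPB2 being the gain. Same-numbered libraries had correlated deviations of 0.131, -0.0176, 0.0232 and 0.0340, and 3 of the 8 libraries correlated best with their own number, so the numbers were not taken to pair them. PRPF31 and LSM2 were too shallow to test, and genes under 10 CPM such as U2AF1 have wide intervals.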

Other observations

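Of the annotated genes that overlap a core gene on either strand, 12 were tested and 7 were called (58.3%, against 57.9% of all tested genes), 2 as higher and 5 as lower. QPCTL, XPC, TUT4, TMEM150A and the pseudogene AC114495.2 were not called. FKBP3, which overlaps PRPF39 on the opposite strand, fell by 0.93 on the log2 scale (SE 0.10, edgeR adjusted p = 8.9e-09). On the strand opposite to PRPF39 there were 342, 400, 269 and 361 counts in the controls and 110, 153, 131 and 195 with dTAGV1 (log2 fold change -1.24, SE 0.13, edgeR adjusted p = 1.07e-09). FKBP3 (chr14:45115600-45135319, minus strand) has its 3′ end within PRPF39, so these counts can be reads of FKBP3. The sources of these reads were not told apart. Sense counts of PRPF39 rose over the same libraries. Also on opposite strands, GUCD1, across from SNRPD3, fell by 0.58 on the log2 scale (edgeR adjusted p = 3.96e-05), SPPL2B, across from LSM7, by 0.81 (adjusted p = 9.12e-05) and PLEKHJ1, across from SF3A2, by 0.49 (adjusted p = 0.00612). C19orf54, across from SNRPA, fell by 1.08 (edgeR adjusted p = 0.0149), and C2orf68, across from USP39, rose by 0.31 (adjusted p = 0.0383). MXD1, which overlaps SNRNP27 on the same strand, rose by 0.56 on the log2 scale (edgeR adjusted p = 0.00836). Any part of these neighbours in the values of the core genes was not tested.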
